A study of Mus musculus with 12 samples.

Results

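The results below concern 10 mouse genes of cytosolic nucleic acid sensing, picked by symbol from the 55216 gene symbols of the count table: Cgas, Tmem173, Tbk1, Ikbke, Ddx58, Ifih1, Dhx58, Mavs, Trex1 and Aim2. The rule uses symbols only, but it was set with earlier results of these data known. Expression was measured by bulk RNA sequencing of poly(A) RNA in Myc-CaP, an established prostate cancer cell line from a Myc-transgenic FVB/NJ mouse. Cells were cultured for 48 h without drug (Ctrl), with interferon γ (IFNγ) labelled 200 pg (IFN200) or 2000 pg (IFN2000), with 2 µM oxaliplatin, a platinum drug that crosslinks DNA (Oxali), or with Oxali and the lower (Combo200) or higher (Combo2000) amount of IFNγ. Each of the 6 groups held 2 libraries, 12 in all, and all of them came from this 1 line, so the results describe cultured cells and not a tumor. The labels do not say whether the 2 libraries of a group came from separate cultures, and p values then measure only the spread between these libraries, which may be technical.

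Cells read foreign or misplaced nucleic acids in the cytosol through dedicated receptors. Cyclic GMP-AMP synthase (cGAS, gene Cgas) binds DNA and makes a cyclic dinucleotide that activates STING (gene Tmem173) at the endoplasmic reticulum. The RNA helicases RIG-I (Ddx58) and MDA5 (Ifih1) bind viral or endogenous RNA duplexes and act through the mitochondrial adaptor MAVS, and LGP2 (Dhx58) modulates both. STING and MAVS recruit the kinases TBK1 and IKKε (Ikbke), which activate the transcription factors IRF3 and IRF7 and so type I interferon genes. TREX1 degrades cytosolic DNA upstream of cGAS, and AIM2 assembles an inflammasome on DNA. Platinum drugs damage nuclear and mitochondrial DNA, and several of these genes are themselves interferon inducible.

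The promoters of 4 of these genes are shown because their counts behaved in different ways: Ddx58 changed most, Mavs changed with Oxali alone, Cgas changed little, and Ifih1 had almost no counts. Each runs from 250 bases before to 50 bases after the RefSeq start site on GRCm38.p6, 5′ to 3′ along the gene, at chr4:40239776-40240075 (minus strand) for Ddx58, chr2:62646206-62646505 (minus) for Ifih1, chr2:131233813-131234112 (plus) for Mavs and chr9:78443188-78443487 (minus) for Cgas. Capitals mark a match to the core of the interferon-stimulated response element (ISRE), a site bound by IRF and STAT factors.
Ddx58: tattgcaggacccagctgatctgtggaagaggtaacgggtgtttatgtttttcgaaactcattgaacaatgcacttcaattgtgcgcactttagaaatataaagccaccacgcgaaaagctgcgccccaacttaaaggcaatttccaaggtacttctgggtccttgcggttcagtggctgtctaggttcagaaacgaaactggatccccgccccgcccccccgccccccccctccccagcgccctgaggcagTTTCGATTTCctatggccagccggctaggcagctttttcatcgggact
Ifih1: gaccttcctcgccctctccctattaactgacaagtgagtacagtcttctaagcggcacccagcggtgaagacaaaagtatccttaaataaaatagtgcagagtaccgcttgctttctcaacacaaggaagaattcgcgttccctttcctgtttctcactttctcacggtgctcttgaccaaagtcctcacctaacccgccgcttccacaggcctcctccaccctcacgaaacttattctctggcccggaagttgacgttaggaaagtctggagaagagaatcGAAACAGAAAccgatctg
Mavs: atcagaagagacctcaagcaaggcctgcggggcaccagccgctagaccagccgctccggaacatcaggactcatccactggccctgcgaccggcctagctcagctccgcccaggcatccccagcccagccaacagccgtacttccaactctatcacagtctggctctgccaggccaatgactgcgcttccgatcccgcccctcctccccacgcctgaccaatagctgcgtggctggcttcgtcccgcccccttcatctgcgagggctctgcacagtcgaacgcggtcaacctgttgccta
Cgas: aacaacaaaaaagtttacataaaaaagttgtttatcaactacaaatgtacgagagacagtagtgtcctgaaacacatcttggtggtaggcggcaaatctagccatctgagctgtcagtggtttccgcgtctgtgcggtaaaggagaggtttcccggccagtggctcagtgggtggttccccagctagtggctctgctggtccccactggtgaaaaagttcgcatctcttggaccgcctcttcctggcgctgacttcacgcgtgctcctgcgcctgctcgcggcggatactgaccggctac

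RefSeq promoter windows were matched for 8 members outside chromosome 18, and none was matched for Dhx58. The letters searched, on both strands and with overlapping matches allowed, were GAAA, any 2 bases and GAAA for the ISRE, TTC, any 3 bases and GAA for the IFNγ-activated site (GAS) and the κB motif by its name. Of the 8 members, 2 held the ISRE letters, Ddx58 at bases 3 to 12 after the start, where the letters read on the strand opposite to the gene (TTTCGATTTC as printed), and Ifih1 at bases 33 to 42 on the strand of the gene (GAAACAGAAA). None of the 8 held the GAS letters and 1, Trex1, held a κB match. Of 32544 windows of the same length, 3.45% held the ISRE letters, 8.33% the GAS letters and 8.49% the κB motif. A match in such a window is a description of its letters only.

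Library totals ran from 18749975 to 25931516 counts, at which the limit allowed by a count of 0 (3 counts) is 0.111 to 0.167 CPM, the count relative to the library total after TMM scaling. This limit covers counting error only, since PCR copies of a molecule were not told apart. The labelled agent contradicts the title for the 6 libraries of single treatments, and titles were used; over 17 tested p53 targets the mean log2 ratio to Ctrl was 0.46 to 0.56 in the 6 libraries with Oxali in their title and -0.03 to 0.08 in the other 6. The targets did not move together, since of the 17, 9 rose and 5, Bax among them, fell in Oxali (all genes 34.8% higher and 32.8% lower). Their summed level of 867 to 907 CPM did not separate the groups. Fas, at 0.0532 CPM in Ctrl and 1.33 CPM in Oxali, passed the filter on low counts through groups where it was higher. The mean log2 ratio of the targets is therefore in part fixed by the filter. Of the prostate epithelial markers, Foxa1, Hoxb13 and Krt8 were well counted (430, 42.3 and 19.9 CPM in Ctrl, and 206, 31.5 and 23.1 CPM in Oxali), whereas Epcam had no count in any library and Krt18 and Cdh1 had at most 5 and 6. A pair of libraries stood apart. In IFN2000 replicate 2, T and NK cell markers summed to 21.4 CPM, with 11 of 12 genes counted, against 0.353 to 3.13 CPM elsewhere, and in IFN200 replicate 1 heart muscle markers summed to 10.1 CPM against 0.835 to 6.26 CPM. Apart from these, both sums were higher with Oxali (T and NK cell markers 2.00 to 3.13 CPM, heart muscle markers 3.53 to 6.26 CPM) than without. Most of the heart muscle sum with Oxali was Tnnt2 (4.95 CPM in Oxali and 0.949 CPM in Ctrl), while Actc1 and Myl2 had no count in Oxali. Lck held 40 of the 52 T and NK cell marker counts in Combo2000 replicate 3, and Cd8a had no count in any library. Myeloid markers summed to 12.5 to 19.1 CPM, most of it Cd14, with Adgre1 and Itgam at 0 in every library. All libraries with Oxali (16.4 to 19.1 CPM) lay above all without (12.5 to 15.7 CPM), and Csf1r had 17 counts in Oxali, 25 in Combo2000 and none in Ctrl. The part of these markers in the results was not tested. Fibroblast markers summed to 25.0 to 25.6 CPM in Oxali and 13.4 to 17.4 CPM in Ctrl, nearly all of it Pdgfra, with Lum at 0 everywhere. In bulk samples, fewer cells of a type and less RNA per cell cannot be told apart.

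Of the 10 genes, 7 passed the filter on low counts and were tested. Ifih1, Trex1 and Aim2 did not. Levels of different genes were compared per kilobase of annotated exon. In Ctrl, Mavs was highest at a mean of 18.4 CPM per kb, followed by Tbk1 (12.5), Cgas (5.33), Ddx58 (1.47), Tmem173 (1.38), Ikbke (0.691) and Dhx58 (0.203). The libraries of neighbours in this order did not overlap, apart from those of Ddx58 and Tmem173. In Combo2000, Ddx58 had moved to the second place at 12.8 CPM per kb, where its libraries overlapped those of Tbk1 at 12.6, and Mavs stood at 29.3, Cgas at 6.61 and Tmem173 at 2.21. By the length of the longest transcript the order was the same in every group but Combo200, where Ddx58 passed Tbk1.

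**Figure D1:**
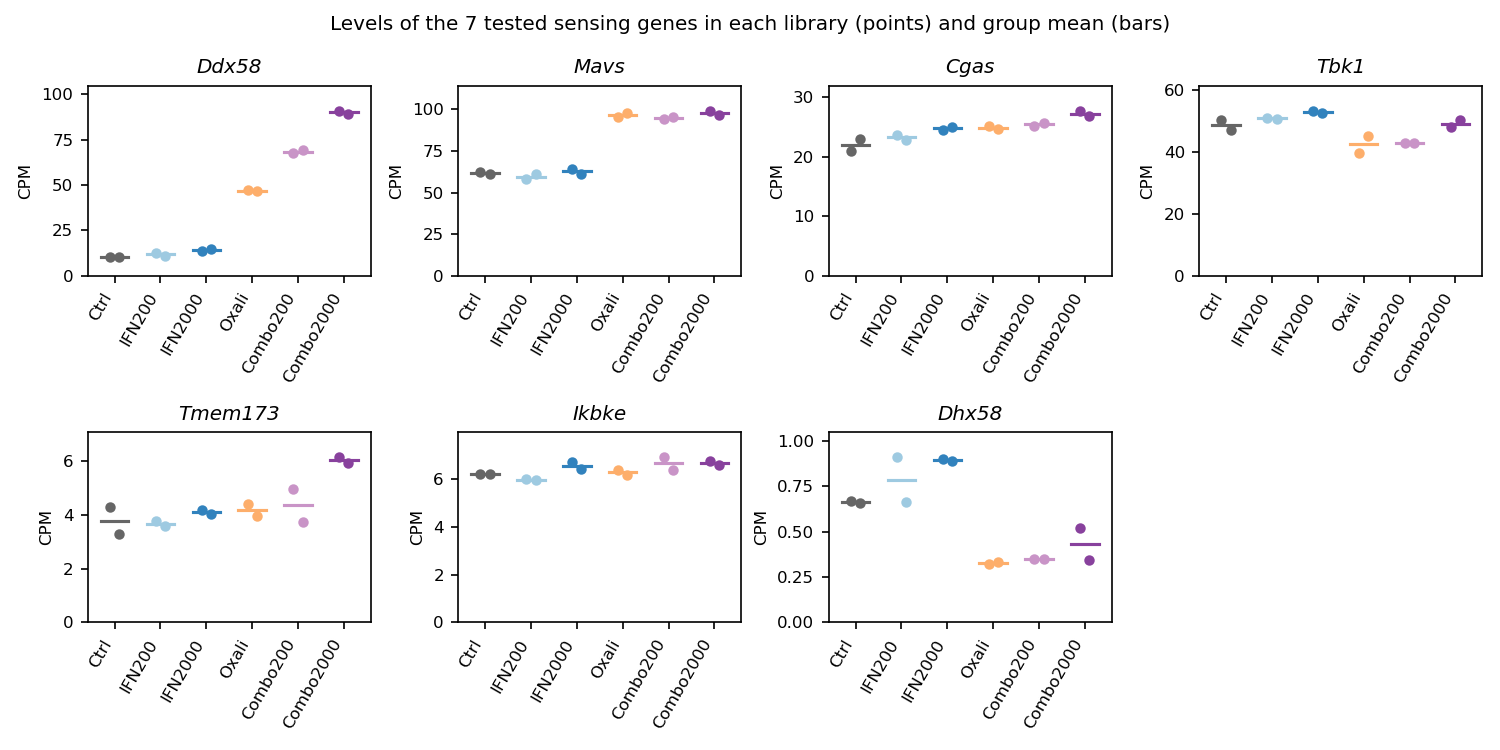
CPM (TMM-scaled count relative to the library total, axes from 0) of the 7 tested genes in each of the 12 libraries (points) with the mean of the 2 libraries of a group (bars). Ddx58 lay at 10.3 CPM in both Ctrl libraries and at 89.1 and 90.9 CPM in Combo2000, Mavs separated all libraries with Oxali from all without, and Ikbke stayed between 5.97 and 6.94 CPM.

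A gene was called at an adjusted p under 0.05 in edgeR's quasi-likelihood test, with Benjamini-Hochberg adjustment over the 13177 genes tested in each comparison. To determine the effect of each agent alone, each single treatment was compared with Ctrl. In IFN200, 0 of the 7 genes were called, 1 (Ddx58) had an unadjusted p under 0.05, DESeq2 also called 0, and 0.114% of all genes were called. In IFN2000, 1 gene rose (Ddx58) and none fell, where 16.9% of all genes were called, 8.39% higher and 8.47% lower. In Oxali, 3 rose (Ddx58, Mavs and Cgas) and 2 fell (Tbk1 and Dhx58), where 67.6% of all genes were called, 34.8% higher and 32.8% lower, so 5 of 7 was close to the background. Against Ctrl, 3 genes rose and 1 fell in Combo200 (background 68.7%, with 35.6% higher and 33.1% lower), and 4 rose and none fell in Combo2000 (background 69.2%, with 35.7% higher and 33.5% lower). The median log2 change of the 7 genes was 0.12 in IFN2000, 0.15 in Oxali and 0.31 in Combo2000, with medians over all genes of 0.00, 0.02 and 0.02. These comparisons share the Ctrl libraries.

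Adding IFNγ to Oxali changed few genes across the transcriptome. Against Oxali alone, 1 of the 7 genes was called in Combo200 (Ddx58, higher, where 1.83% of all genes were called, 1.58% higher and 0.25% lower) and 3 in Combo2000 (Ddx58, Tmem173 and Tbk1, all higher, where 4.36% were called, 3.37% higher and 0.987% lower). The addition of Oxali to IFNγ gave 2 higher and 2 lower in Combo200 against IFN200 (background 69.9%, with 36.5% higher and 33.5% lower), and 4 higher and 1 lower in Combo2000 against IFN2000 (background 72.3%, with 38.5% higher and 33.8% lower). Between the IFNγ amounts, Ddx58 was the only member called, higher at the larger amount both without Oxali (background 22.3%, with 11.3% higher and 11% lower) and with it (background 1.37%, with 1.21% higher and 0.167% lower). Whether the log2 effect of IFNγ differed with Oxali present was tested as an interaction, (Combo minus Oxali) minus (IFNγ minus Ctrl). At 200 pg, 0 members were called by edgeR and 0 by DESeq2, with 1 at an unadjusted p under 0.05 (background 0.698%, with 0.562% higher and 0.137% lower). At 2000 pg, 1 member was called, Ddx58 (background 2.72%, with 2.12% higher and 0.6% lower).

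**Figure D2:**
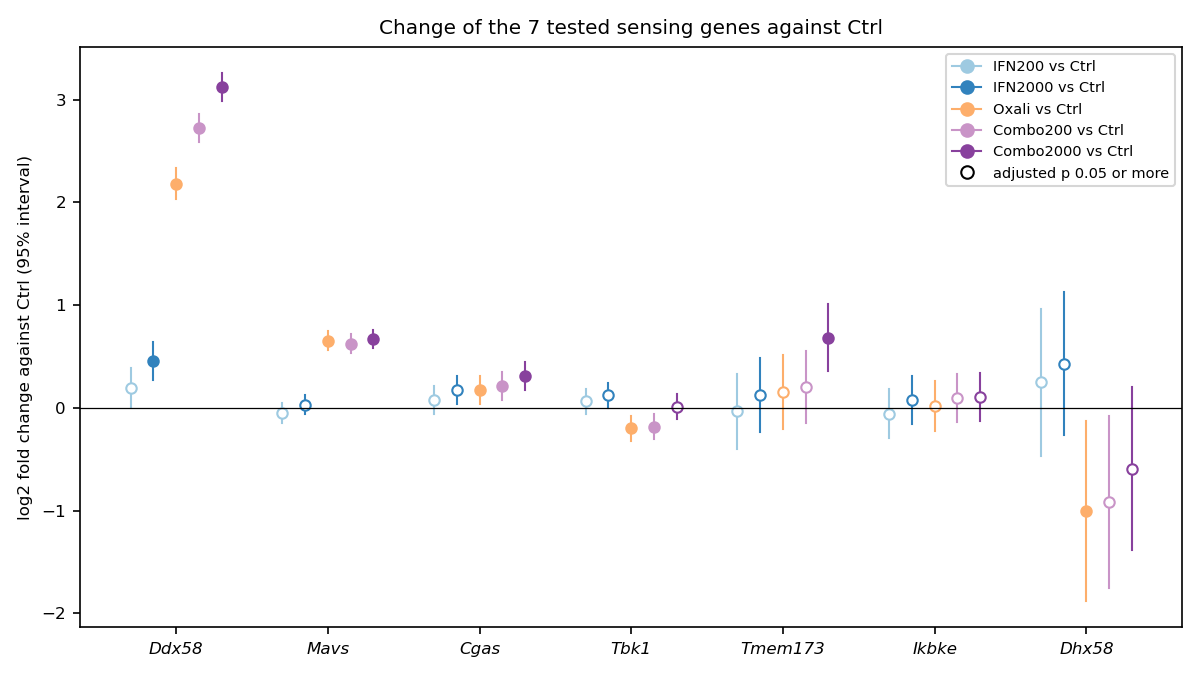
Log2 fold change against Ctrl of the 7 tested genes in the 5 treated groups, with 95% intervals from edgeR; filled points had an adjusted p under 0.05. Ddx58 rose from 0.20 in IFN200 to 3.12 in Combo2000, Mavs lay between 0.63 and 0.67 with Oxali and near 0 without, and the intervals of Dhx58 were wide.

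Ddx58 (RIG-I, the sensor of RNA with a 5′ triphosphate, chr 4, 40203773 to 40239828, minus strand, protein coding) changed more than any other member. Its level was 10.3 and 10.3 CPM in Ctrl, 12.7 and 11.0 CPM in IFN200, 13.5 and 14.9 CPM in IFN2000, 47.4 and 46.5 CPM in Oxali, 67.6 and 69.2 CPM in Combo200, and 90.9 and 89.1 CPM in Combo2000. No group overlapped another, and every library with Oxali lay above every library without it. Oxali alone raised Ddx58 4.54-fold, by 2.18 on the log2 scale (SE 0.071, edgeR adjusted p = 2.04e-15). IFN2000 alone raised it by 0.46 (SE 0.087, edgeR adjusted p = 0.00140), while the 0.20 of IFN200 did not pass (95% interval 0.01 to 0.39, edgeR adjusted p = 0.803). With both agents the change against Ctrl was 6.61-fold in Combo200 and 8.70-fold in Combo2000.

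IFNγ raised Ddx58 further in cells that also received Oxali. The log2 change against Oxali was 0.54 in Combo200 (SE 0.050, edgeR adjusted p = 3.09e-07) and 0.94 in Combo2000 (SE 0.048, edgeR adjusted p = 1.14e-11). Combo2000 exceeded Combo200 by 0.40 (SE 0.045, edgeR adjusted p = 8.15e-06). These Ddx58 calls held under every alternative and without any single library. The dose step without Oxali, 0.26 between IFN2000 and IFN200 (edgeR adjusted p = 0.0273), did not: it was 0.16 without IFN200 replicate 2 (adjusted p = 0.270), 0.20 without IFN2000 replicate 3 (adjusted p = 0.135), and also missed the threshold in DESeq2 (adjusted p = 0.0525), with the replicate number as a block (adjusted p = 0.0546) and with only these groups in the fit (adjusted p = 0.0978). Without IFN200 replicate 1, which held heart muscle transcripts, the IFN200 change of Ddx58 was 0.09. Without IFN2000 replicate 2, which held T and NK cell transcripts, its IFN2000 change was 0.53 (edgeR adjusted p = 0.00243), so the rise was as large without that library.

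The effect of IFNγ on Ddx58 was larger with Oxali than without. The interaction was 0.48 at 2000 pg (SE 0.101, 95% interval 0.27 to 0.69, edgeR adjusted p = 0.0116) and 0.35 at 200 pg (95% interval 0.13 to 0.56, edgeR adjusted p = 0.189, not called). The call at 2000 pg was lost without Ctrl replicate 1 (0.47, adjusted p = 0.121), without Ctrl replicate 2 (0.47, adjusted p = 0.0939) and without IFN2000 replicate 2 (0.41, adjusted p = 0.0738). On the linear scale, the sum of the single effects on the Ctrl mean came to 48.5 CPM for 200 pg and 50.8 CPM for 2000 pg, and both combination libraries lay above it at each amount. Rises that multiply exceed their sum without any interaction on the log2 scale, so this position adds nothing to the test. Over the means of the 6 groups, the genes whose log2 level followed that of Ddx58 most closely were Tnfsf10 (Pearson r = 0.999), Cox6c (0.999) and 4933412E12Rik (0.998), a description over 6 points that share libraries.

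Dhx58 (LGP2, the relative of RIG-I without a signaling domain, chr 11, 100694884 to 100704271, minus strand) was counted at a very low level and, unlike Ddx58, was lower with Oxali. The Ctrl libraries held 12 and 13 counts, the IFN200 libraries 21 and 15, the IFN2000 libraries 21 and 20, the Oxali libraries 7 and 7, the Combo200 libraries 8 and 9, and the Combo2000 libraries 14 and 8. In CPM, all libraries with Oxali (0.322 to 0.519) lay below all those without (0.659 to 0.912). Against IFNγ alone Dhx58 fell by 1.17 on the log2 scale in Combo200 (SE 0.37, edgeR adjusted p = 0.00878) and by 1.02 in Combo2000 (SE 0.34, edgeR adjusted p = 0.0111). Against Ctrl, Oxali lowered it by 1.00 (SE 0.42, edgeR adjusted p = 0.0462). That last call sat at the threshold and was lost without any single library. It was also lost under upper-quartile scaling (adjusted p = 0.0597), with no filter (adjusted p = 0.0842) and with the replicate block (adjusted p = 0.0525). DESeq2 called none of the 3 falls, with adjusted p of 0.0766, 0.0952 and 0.167. The call in Combo200 against IFN200 was also lost without IFN200 replicate 1 (-0.93, adjusted p = 0.109), without Combo200 replicate 2 (adjusted p = 0.0515) or replicate 3 (adjusted p = 0.0576) and under the replicate block (-0.97, adjusted p = 0.0717), and that in Combo2000 against IFN2000 without Combo2000 replicate 3 (-0.78, adjusted p = 0.122). Dhx58 reached the minimum of the filter in both libraries only in the 3 groups without Oxali, so it was tested through the groups where it is higher, and its falls are in part fixed by the filter. Dhx58 shares 141 exon bases with the antisense gene Dhx58os, and without strand-aware counting reads of the pair cannot be told apart.

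Ifih1 (MDA5, the sensor of long RNA duplexes, chr 2, 62595798 to 62646255, minus strand) was essentially uncounted. A single read fell in IFN2000 replicate 2 and none in the other 11 libraries, so the level was at or under the limit of 0.111 to 0.167 CPM everywhere, combinations with Oxali included. The protein-coding genes around it were equally empty. A run of 9 neighbouring genes on chr 2, from Slc4a10 through Dpp4, Gcg, Fap, Ifih1, Gca, Kcnh7 and Fign to Grb14 (62046462 to 65024987), held 2 counts in all 12 libraries together. Before the run lies Tbr1, with a median of 1 count, and then Psmd14, a proteasome subunit, with a median of 2762. After it lies Cobll1 with a median of 2188, and the next genes, Slc38a11 and Scn3a, were again at a median of 0. Across the table, 35.3% of 21698 protein-coding genes had at most 1 count in every library. Some genes of the run are tissue restricted, such as Gcg, which encodes glucagon. The run was delimited by its own low counts, and why it was empty was not tested.

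**Figure D3:**
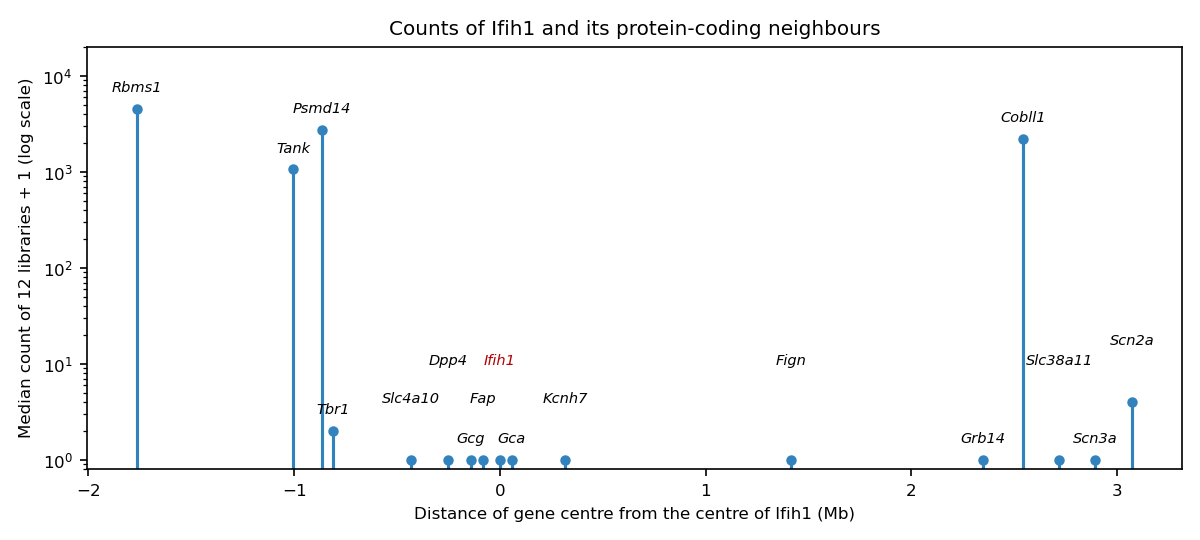
Median count over 12 libraries plus 1 (log axis) of Ifih1 and of the 8 protein-coding genes on each side, against the distance of each gene's centre from the centre of Ifih1 in Mb. The 9 genes from Slc4a10 to Grb14 lie at a median of 0 counts, as do Slc38a11 and Scn3a further on, with Tbr1 at 1, Psmd14 at 2762 and Cobll1 at 2188.

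Mavs (the mitochondrial adaptor of RIG-I and MDA5, chr 2, 131234063 to 131248025, plus strand) rose with Oxali whether or not IFNγ was present. Its level was 62.1 and 60.9 CPM in Ctrl, 57.9 and 61.0 CPM in IFN200, 64.2 and 61.4 CPM in IFN2000, 95.4 and 97.8 CPM in Oxali, 94.4 and 95.2 CPM in Combo200, and 99.2 and 96.6 CPM in Combo2000. All 6 libraries with Oxali lay above all 6 without. Oxali raised Mavs 1.57-fold, by 0.65 on the log2 scale (SE 0.044, edgeR adjusted p = 8.50e-11), and the combinations by 0.63 (edgeR adjusted p = 1.30e-10) and 0.67 (edgeR adjusted p = 3.88e-11). IFNγ alone gave -0.05 (95% interval -0.14 to 0.05) at 200 pg and 0.03 (-0.06 to 0.13) at 2000 pg, and the interactions were 0.02 (-0.11 to 0.15) and -0.01 (-0.14 to 0.12). The Oxali calls of Mavs held under every alternative and without any single library. The genes with the most similar group means were Sirt7, Arhgef28 and Nkpd1 (each Pearson r = 1.000 over 6 groups).

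Cgas (cGAS, the DNA sensor, chr 9, 78430526 to 78443237, minus strand) rose slightly. Its level was 20.9 and 23.1 CPM in Ctrl, 23.6 and 22.9 CPM in IFN200, 24.6 and 25.0 CPM in IFN2000, 25.1 and 24.6 CPM in Oxali, 25.3 and 25.7 CPM in Combo200, and 27.7 and 26.8 CPM in Combo2000. The Ctrl libraries lay further apart than those of any other group, and both lay below both Oxali libraries. The log2 change against Ctrl was 0.31 in Combo2000 (SE 0.064, edgeR adjusted p = 0.00025), a call that held under every alternative. The changes of 0.18 in Oxali (SE 0.066, edgeR adjusted p = 0.0255, and 0.106 with no filter) and 0.21 in Combo200 (SE 0.065, edgeR adjusted p = 0.00752) were less stable. Without Ctrl replicate 1 they came to 0.10 (adjusted p = 0.266) and 0.13 (adjusted p = 0.141), and DESeq2 gave adjusted p of 0.122 and 0.0658. The Oxali call was also lost without Oxali replicate 1 (adjusted p = 0.0935) or replicate 2 (adjusted p = 0.0579), and the Combo200 call without Combo200 replicate 3 (adjusted p = 0.0510). In Combo2000 against IFN2000 the change was 0.14 (edgeR adjusted p = 0.0455). This call was lost in DESeq2 (adjusted p = 0.265), under median-ratio scaling (adjusted p = 0.0873) and with no filter (adjusted p = 0.128). It was also lost with the replicate block (adjusted p = 0.0629), the length and GC trend removed (adjusted p = 0.106) and only the groups compared (adjusted p = 0.0972). The same held without any of 10 of the 12 libraries, most of all without Combo2000 replicate 2 (0.11). Cgas shares 201 exon bases with the pseudogene Gm8093 on the opposite strand.

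Tmem173 (STING, the adaptor downstream of cGAS, chr 18, 35733679 to 35740554, minus strand) rose only where Oxali met the higher amount of IFNγ, among the comparisons with Ctrl. Its level was 4.28 and 3.29 CPM in Ctrl, 3.78 and 3.58 CPM in IFN200, 4.20 and 4.02 CPM in IFN2000, 4.42 and 3.96 CPM in Oxali, 4.97 and 3.75 CPM in Combo200, and 6.15 and 5.95 CPM in Combo2000. Both Combo2000 libraries lay above all others. The other treated groups each overlapped Ctrl, while the IFN2000 libraries lay above the IFN200 libraries. The change in Combo2000 was 1.61-fold against Ctrl (0.68 on the log2 scale, SE 0.156, edgeR adjusted p = 0.000686) and 1.47-fold against IFN2000 (0.56, SE 0.147, edgeR adjusted p = 0.00208), and both calls held under every alternative. Against Oxali it was 0.53 (edgeR adjusted p = 0.0482). This call was lost in DESeq2 (adjusted p = 0.313), under upper-quartile scaling (adjusted p = 0.0545), under median-ratio scaling (adjusted p = 0.0512) and without any of 8 of the 12 libraries, most of all without Oxali replicate 2 (0.45, adjusted p = 0.308). The interaction at 2000 pg was 0.40 (95% interval -0.07 to 0.88, edgeR adjusted p = 0.393), so a difference of the IFNγ effect with Oxali was not shown. Among the genes with the most similar group means were Inpp5j (Pearson r = 0.993 over 6 groups) and Ifi204 (0.990).

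Tbk1 (TANK-binding kinase, chr 10, 121546455 to 121586787, minus strand) fell with Oxali and was back at the Ctrl level in Combo2000. Its level was 50.3 and 47.2 CPM in Ctrl, 51.1 and 50.8 CPM in IFN200, 53.4 and 52.7 CPM in IFN2000, 39.7 and 45.3 CPM in Oxali, 42.9 and 43.1 CPM in Combo200, and 48.0 and 50.5 CPM in Combo2000. The Oxali and Combo200 libraries lay below those of the other 4 groups. The fall was 0.20 on the log2 scale in Oxali (log2 change -0.20, SE 0.059, edgeR adjusted p = 0.00561) and 0.18 in Combo200 (-0.18, SE 0.058, edgeR adjusted p = 0.00899), and Combo2000 gave 0.01 (95% interval -0.11 to 0.13). Without Ctrl replicate 1 the first 2 values were -0.16 (adjusted p = 0.0750) and -0.15 (adjusted p = 0.0887), and without Oxali replicate 1 the Oxali value was -0.11 (adjusted p = 0.161). Against IFN200, Combo200 was lower by 0.24 (-0.24, SE 0.056, edgeR adjusted p = 0.000643), a call held under every alternative. Combo2000 exceeded Oxali by 0.21 (edgeR adjusted p = 0.0358), but this was lost in DESeq2 (adjusted p = 0.185) and under upper-quartile scaling (adjusted p = 0.0581). It was also lost with the replicate block (adjusted p = 0.273) and with only the groups compared (adjusted p = 0.0716). The same held without any of 9 of the 12 libraries, most of all without Oxali replicate 1 (0.12).

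Ikbke (IKKε, the inducible relative of TBK1, chr 1, 131254343 to 131279606, minus strand) was called in none of the 13 contrasts under any setting tried. Its level was 6.23 and 6.23 CPM in Ctrl, 6.03 and 5.97 CPM in IFN200, 6.72 and 6.43 CPM in IFN2000, 6.40 and 6.20 CPM in Oxali, 6.94 and 6.42 CPM in Combo200, and 6.78 and 6.60 CPM in Combo2000. The 95% intervals of the log2 change against Ctrl ran from -0.23 to 0.26 in Oxali and from -0.13 to 0.33 in Combo2000. Ikbke shares 159 and 65 exon bases with the antisense genes Gm28914 and Gm28913.

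The remaining members could not be assessed. Trex1 (the cytosolic DNA exonuclease, chr 9, 109057933 to 109059734, minus strand) was listed at 0 counts in every library, but all 1147 of its exon bases lie inside exons of Atrip on the same strand, so the 0 says nothing about Trex1. Atrip, which encodes the partner of the kinase ATR, had group means of 27.2 to 31.6 CPM and was called only in Combo2000 against IFN2000 (-0.22, edgeR adjusted p = 0.00249). Aim2 (the inflammasome sensor of DNA, chr 1, 173350879 to 173466040, plus strand) had 1 and 0 counts in the Ctrl libraries, none in the IFN200 libraries, 1 and 1 in the IFN2000 libraries, 3 and 4 in the Oxali libraries, 2 and 7 in the Combo200 libraries, and 2 and 1 in the Combo2000 libraries. Only 3 libraries, all with Oxali, held 3 counts or more, and the gene was not tested. At this depth a change of Aim2 was not detectable.

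The rest of the pathway was read from 4 lists of sensors, partners, nucleic acid removal and outputs. The list of sensors is broader than nucleic acid sensing, since it also holds Naip2, Nod1 and Nod2. Of 28 other sensors 17 were tested. In Oxali 8 rose and 3 fell (all genes 34.8% higher and 32.8% lower), in IFN2000 4 rose and 1 fell (8.39% and 8.47%), and in Combo2000 14 rose and 3 fell (35.7% and 33.5%). Of the 17 tested, 10 (Oasl2, Zbp1 and Ddx60 among them) were under the minimum of the filter in at least 1 Ctrl library and were tested through groups where they were higher, so that these rises are in part fixed by the filter and support nothing about the list. Of the 7 at the minimum in both Ctrl libraries, 2 rose and 3 fell in Oxali, 1 rose and 1 fell in IFN2000, and 4 rose and 3 fell in Combo2000. Oasl2, an interferon-induced relative of the oligoadenylate synthetases, rose from 0.420 ± 0.122 CPM in Ctrl to 2.76 ± 0.196 in Oxali, 2.81 ± 0.814 in IFN2000 and 26.7 ± 1.21 in Combo2000 (SD, n = 2), a log2 change of 5.96 (edgeR adjusted p = 2.50e-15). Tlr3, the endosomal receptor of RNA duplexes, rose by 0.50 in Oxali (edgeR adjusted p = 5.92e-07) and 1.14 in Combo2000 (edgeR adjusted p = 7.87e-13), with an interaction of 0.47 at 2000 pg (edgeR adjusted p = 0.00248) that held under every alternative. Zbp1, the sensor of Z-form nucleic acids, had no count in Ctrl, IFN200 or Oxali, 1 count in IFN2000, 13 in Combo200 and 95 in Combo2000, at least 11.7-fold higher in Combo2000 than Ctrl taken at 3 counts per library.

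Among the other sensors, the helicases Ddx41 (-0.66), Dhx9 (-0.60) and Dhx36 (-0.22) fell in Oxali and stayed lower in Combo2000 (-0.61, -0.62 and -0.21), each with an edgeR adjusted p of at most 0.000100. Ifi204, a mouse relative of AIM2 whose family shares sequence so that its counts are uncertain, rose by 1.68 in Combo2000 (edgeR adjusted p = 1.86e-06). Naip2, an inflammasome receptor, changed by 0.64 in Oxali (edgeR adjusted p = 0.00485) and by -0.95 in IFN2000 (edgeR adjusted p = 0.00807), the latter lost without Ctrl replicate 1 (adjusted p = 0.0855) or IFN2000 replicate 2 (adjusted p = 0.0532). Ddx41 rose by 0.13 in IFN2000 (edgeR adjusted p = 0.0328), which DESeq2 did not call (adjusted p = 0.102) and which was lost without any of 5 libraries, most of all without IFN2000 replicate 2 (0.10, adjusted p = 0.271). In IFN2000 the 4 rises and 1 fall became 3 and 0 without IFN2000 replicate 2, 2 and 0 without Ctrl replicate 1 and 2 and 1 without Ctrl replicate 2. In Oxali the 8 rises and 3 falls became 4 and 3 without Ctrl replicate 2.

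Of 30 partners 23 were tested, and 11 rose and 6 fell in Oxali, 3 rose and 3 fell in IFN2000, and 11 rose and 5 fell in Combo2000. Over all genes 67.6%, 16.9% and 69.2% were called, and the Oxali and Combo2000 counts were near these shares. Their median log2 change was 0.06 in Oxali, 0.00 in IFN2000 and 0.15 in Combo2000. The transcription factors at the end of the pathway diverged. Irf7, an interferon-inducible factor, had 0.772 ± 0.0884 CPM in Ctrl, 3.77 ± 0.0608 CPM in Oxali and 10.2 ± 0.700 CPM in Combo2000 (SD, n = 2), which gave log2 changes of 2.29 (edgeR adjusted p = 5.08e-08) and 3.72 (edgeR adjusted p = 1.19e-12). Irf3, which is present before stimulation, fell by 0.31 in Oxali (edgeR adjusted p = 0.000143) and by 0.33 in Combo2000 (edgeR adjusted p = 6.15e-05). Traf3, the ubiquitin ligase between MAVS and TBK1, was not called in these comparisons (0.06 in Oxali, -0.01 in IFN2000 and 0.07 in Combo2000).

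Among the other partners, Sqstm1 (p62, an autophagy receptor) rose by 0.97 and Rnf135 (Riplet, the ubiquitin ligase of RIG-I) by 0.74 in Oxali, with edgeR adjusted p of 3.82e-14 and 8.54e-05. Azi2 (NAP1, an adaptor of TBK1) fell by 0.80 and Trim65, a ubiquitin ligase of MDA5, by 0.74, with edgeR adjusted p of 4.80e-11 and 1.36e-07. In Combo2000 the changes were 0.93 for Sqstm1, 0.77 for Rnf135, -0.77 for Azi2 and -0.49 for Trim65, all called. In IFN2000, Ifi35 (0.36, edgeR adjusted p = 0.000861) and Trim25, another ubiquitin ligase of RIG-I (0.25, edgeR adjusted p = 0.00134), rose, and Ifi35 reached 1.20 in Combo2000 (edgeR adjusted p = 5.79e-13). Sqstm1 fell by 0.17 in IFN2000 (edgeR adjusted p = 0.00534), a call lost without Ctrl replicate 1 (-0.13, adjusted p = 0.129). The further IFN2000 calls, Fadd (0.28) and Ticam1 (-0.26) and Trim56 (-0.25), were each lost without IFN2000 replicate 2 (adjusted p = 0.128, 0.0708 and 0.200) and without Ctrl replicate 1 (adjusted p = 0.129, 0.295 and 0.113), and Trim56 also without Ctrl replicate 2 (adjusted p = 0.122). The 3 rises and 3 falls of the list became 2 and 1 without IFN2000 replicate 2 and 2 and 0 without Ctrl replicate 1.

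Of 17 genes that remove, edit or move nucleic acids and cyclic dinucleotides 16 were tested, and 5 rose and 7 fell in Oxali, 1 rose and 1 fell in IFN2000, and 5 rose and 6 fell in Combo2000. These counts were near the shares over all genes, 67.6%, 16.9% and 69.2%. Of the 16, 2 (Dnase1l3 among them) were under the minimum of the filter in at least 1 Ctrl library. They were tested through groups where they were higher, so that any called rise among them is in part fixed by the filter. Of the 14 at the minimum in both Ctrl libraries, 4 rose and 7 fell in Oxali, 1 rose and 1 fell in IFN2000, and 4 rose and 6 fell in Combo2000. Samhd1, a dNTP hydrolase that limits cytosolic DNA, rose by 1.34 in Oxali (edgeR adjusted p = 3.75e-16) and 1.56 in Combo2000 (edgeR adjusted p = 2.60e-17), and its interaction at 2000 pg was 0.37 (edgeR adjusted p = 0.000354), held under every alternative. Slc19a1, a folate carrier that also imports cyclic dinucleotides, fell most, by 1.63 in Oxali (edgeR adjusted p = 2.07e-14). Banf1, a DNA-binding protein that competes with cGAS, fell by 0.61 (edgeR adjusted p = 2.42e-09) and Pnpt1, a mitochondrial RNA nuclease, by 0.51 (edgeR adjusted p = 6.87e-10). Skiv2l, an RNA exosome helicase, fell by 0.54 in Combo2000 (edgeR adjusted p = 7.41e-10). Adar, the RNA editor that masks self RNA from MDA5, rose by 0.61 in Combo2000 (edgeR adjusted p = 6.90e-10), while its 0.12 in Oxali (edgeR adjusted p = 0.0391) was lost without any of 7 of the 12 libraries, most of all without Oxali replicate 1 (0.07, adjusted p = 0.329). Lrrc8c, a subunit of a channel that passes cyclic dinucleotides, changed by 0.23 in Oxali (edgeR adjusted p = 0.0297), lost without Ctrl replicate 1 (adjusted p = 0.0652), Ctrl replicate 2 (adjusted p = 0.133) or Oxali replicate 1 (adjusted p = 0.156), and by 0.30 in Combo2000 (edgeR adjusted p = 0.00492), lost without Combo2000 replicate 2 (0.22, adjusted p = 0.0838). In IFN2000, Banf1 rose by 0.21 (edgeR adjusted p = 0.00774) and Samhd1 fell by 0.16 (edgeR adjusted p = 0.00736), and neither was called without IFN2000 replicate 2 (adjusted p = 0.117 and 0.103) or Ctrl replicate 1 (adjusted p = 0.0932 and 0.183). In Oxali the 5 rises and 7 falls became 2 and 5 without Oxali replicate 1.

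Of 19 output genes, 8 are interferon genes, and 7 of these, Ifnb1 among them, had no count in any library. The 8 outputs that were tested were interferon-stimulated genes and chemokines, of which 6 rose in Oxali (all genes 34.8% higher), 3 rose and 1 fell in IFN2000 (8.39% and 8.47%), and 8 rose in Combo2000 (35.7%). Of these 8, 5 (Ifit1, Rsad2, Usp18, Cxcl10 and Ccl5) were under the minimum of the filter in at least 1 Ctrl library and were tested through groups where they were higher, so that their rise is in part fixed by the filter and supports nothing about the list. The other 3 are Isg15, Ifit2 and Ifit3, of which 2 rose in Oxali, 1 rose and 1 fell in IFN2000, and 3 rose in Combo2000. Isg15, a ubiquitin-like modifier, rose by 1.07 in Oxali (edgeR adjusted p = 5.25e-08), 0.72 in IFN2000 (edgeR adjusted p = 0.000297) and 2.11 in Combo2000 (edgeR adjusted p = 2.19e-13). Ifit2, which encodes an interferon-induced RNA-binding protein, fell by 0.30 in IFN2000 (edgeR adjusted p = 0.000782) and rose by 0.13 in Combo2000 (edgeR adjusted p = 0.0293), the latter lost without Ctrl replicate 1 (0.08, adjusted p = 0.283) or Combo2000 replicate 2 (0.09, adjusted p = 0.248). In IFN2000 the 3 rises and 1 fall became 1 and 1 without Ctrl replicate 1 or IFN2000 replicate 2.

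**Figure D4:**
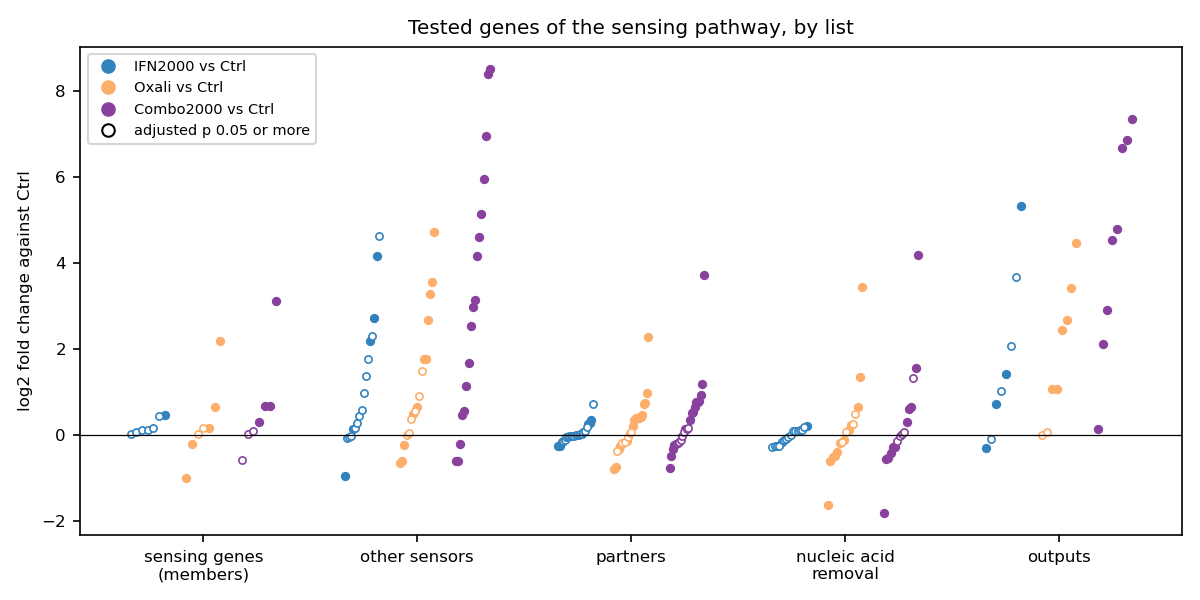
Log2 fold change against Ctrl of every tested gene (points, filled at an adjusted p under 0.05) in the 10 sensing genes and 4 pathway lists, for IFN2000, Oxali and Combo2000. Ddx58 is the highest sensing gene in each comparison. Under the minimum of the filter in Ctrl were 10 of 17 other sensors, 2 of 16 nucleic acid removal genes and 5 of 8 outputs. The heights of these lists are therefore not compared. Values of genes with no count in Ctrl depend on the prior count and are not bounds.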

How the data were processed

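RNA was measured in 12 libraries of Myc-CaP cells prepared with a stranded poly(A) kit. The values deposited by the authors are raw counts, 1 row per gene symbol. Their methods name alignment with STAR to GRCm38 with GENCODE gene models and counting with featureCounts, whereas the submitters' processing notes name STAR 2.7.3a and RSEM 1.3.0; the deposited counts are whole numbers. Whether counting used the strand is not given in the sources used here. Groups came from the sample titles.

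After filterByExpr (minimum count 10, minimum total count 15) and TMM scaling, edgeR 4.0.16 (R 4.3.3) fitted 1 quasi-likelihood model to all 12 libraries, with 6 group means and without covariates, and 13 contrasts were tested. The threshold was a Benjamini-Hochberg adjusted p of 0.05. Standard errors are the log2 change divided by the square root of F. The smallest two-sided p of an exact permutation test with 2 libraries per group is 0.333, and the calls therefore depend on edgeR sharing the spread between genes. CPM is edgeR's. Positions and exon lengths are GENCODE gene models on GRCm38, in which 53559 symbols were found, and sequences are RefSeq windows on GRCm38.p6. Scripts were tested on simulated data.

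The members and gene lists were chosen with earlier results of these data known. All 10 members are named; each pathway list contributed, for Oxali, IFN2000 and Combo2000 against Ctrl, its 3 top rises and 3 top falls by log2 change (called, average log2 CPM 1 or more), besides Irf3, Irf7, Traf3, Zbp1, Samhd1, Adar and Ifnb1. Similar genes are the 3 with the highest Pearson r over 6 group means. A few genes, among the markers and the similar genes, are not reported here. Alternatives were upper-quartile and median-ratio scaling, DESeq2 1.42.0, no filter, a mean of at least 50 counts, a replicate block, removal of the length and GC trend, only the groups compared, and each library left out. Alternatives for the pathway genes were added after seeing the data. Replicate numbers did not pair the libraries (correlations of replicate differences -0.05 to 0.02). Chi-square per degree of freedom between the libraries of a group was 1.72 to 9.20, so no pair agreed within counting noise, which does not show that they were separate cultures.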

Additional observations from a re-analysis of the deposited data

Results flagged for a closer look

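The effect of IFNγ at 2000 pg on Ddx58 differed with Oxali present from that without it, by 0.48 on the log2 scale (edgeR adjusted p of the interaction 0.0116). Both combination libraries lay above the sum of the single effects, which rises that multiply reach without any interaction on the log2 scale. The interaction is given here because the same contrast differed between cells with and without Oxali in a test of that difference. It missed the threshold without either Ctrl library and without IFN2000 replicate 2.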

How the results depend on the processing

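Over the 7 tested members, 1800 log2 changes were recomputed under an alternative. A change of direction was counted only where either fit called the gene, so changes called in neither may differ in sign. Of the 1800, 1706 kept their side of the threshold, 82 lost a call, 12 gained one and 0 reversed a call. For named pathway genes these were 2699, 79, 22 and 0 of 2800. Only values called in the main fit could lose a call, and these were a minority of the 1800. Neither 82 of 1800 nor 79 of 2800 is therefore the share of calls that were lost. Numbers of members called moved as follows, and the causes were not tested. Combo2000 against Oxali went from 3 to 1 under upper-quartile scaling and 1 in DESeq2. Oxali against Ctrl went from 5 to 3 in DESeq2 and 3 with no filter, and Combo2000 against IFN2000 from 5 to 3 in DESeq2. IFN2000 against IFN200 went from 1 to 0 in DESeq2, with the replicate block and with only the groups compared. Combo2000 against Combo200 went from 1 to 3 with no filter, 2 with the length and GC trend removed and 2 with only the groups compared. With 1 library left out, the numbers ran from 2 to 4 in Oxali and 2 to 4 in Combo200 against Ctrl, 1 to 3 in Combo2000 against Oxali, 3 to 5 in Combo2000 against IFN2000, 0 to 1 in IFN2000 against IFN200 and 0 to 1 in the interaction at 2000 pg.

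The replicate block changed member calls only for Ddx58 in IFN2000 against IFN200, Tbk1 in Combo2000 against Oxali, Cgas in Combo2000 against IFN2000, Tmem173 in Combo200 against IFN200, and Dhx58 in Oxali against Ctrl and Combo200 against IFN200. Over all genes, calls under the block went from 2221 to 1071 in IFN2000 against Ctrl, 241 to 142 in Combo200 and 574 to 331 in Combo2000 against Oxali, 2943 to 1588 between the IFNγ amounts and 92 to 48 in the interaction at 200 pg. DESeq2 called 373 in Combo2000 against Oxali and 217 in the interaction at 2000 pg (359 before). With no filter, calls were 102 in IFN200 (15 before), 372 in Combo200 against Oxali, and 262 and 785 in the interactions. The length and GC fit gave 33 in IFN200 and 589 in the interaction at 2000 pg, and the fits of only the groups compared 48 in IFN200 and 172 in the interaction at 200 pg. Log ratios to Ctrl in the IFN2000 libraries fell with transcript length (Spearman -0.35 and -0.19 across genes, -0.02 to 0.15 elsewhere), and the IFN2000 call of Ddx58 held with that trend removed. The counts of the pathway lists moved by over 1.5 times mostly in IFN2000 against Ctrl (DESeq2, the replicate block and only the groups compared), and with a mean of at least 50 counts, which tests fewer genes, the other sensors that rose in Combo2000 went from 14 to 5 and the outputs from 8 to 4. Depth limits Aim2, Ifih1 and Dhx58, and 2 libraries per group limit every small change.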
